A study of Saccharomyces cerevisiae with 12 samples.

Results

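Ribonucleotide reductase and its regulators are described here through 9 budding yeast genes chosen by name: the large subunit genes RNR1 and RNR3, the small subunit genes RNR2 and RNR4, the inhibitor genes SML1, DIF1 and HUG1, the kinase gene DUN1 and the repressor gene RFX1. The rule for membership uses their names and roles, and it was set with earlier results of these data known. All 9 were found among the 5656 genes that the arrays measured with at least 1 probe set annotated to a single symbol, and each had 1 such probe set. The study deleted ANC1, which is named TAF14 in current annotation and encodes a subunit shared by several transcription and chromatin complexes, among them TFIID, TFIIF and SWI/SNF. The arrays compare cells with and without it, each with and without the DNA alkylating agent methyl methanesulfonate (MMS), and the study's text states a question for the strain comparison alone, whether Anc1 affects transcripts of postreplicative repair genes.

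The 12 Affymetrix arrays fall into 4 groups of 3: MMS-treated anc1Δ, untreated anc1Δ, MMS-treated wildtype and untreated wildtype. Both strains are haploid cells of the BY4741 background and so share its MATa mating type and its his3, leu2, met15 and ura3 deletions, and both were grown in rich medium to logarithmic phase. The sources disagree on the marker that replaced ANC1, giving URA3 in one place and a G418 resistance marker in another. RNA came from 3 independent colonies of each strain. The dose and duration of MMS, and whether the treated cultures came from the same colonies as the untreated ones, are, in the sources used here, not given, so the p-values measure only the spread between these arrays. Groups follow the sample titles, although another label of the 3 MMS-treated wildtype arrays calls them untreated and a description attached to 3 of the anc1Δ arrays names wildtype.

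Ribonucleotide reductase makes the deoxynucleotides needed for DNA replication and repair. In budding yeast the large subunit is mostly Rnr1, with Rnr3 as an isoform known for its induction by DNA damage, and the small subunit is a heterodimer of Rnr2 and Rnr4. After damage the checkpoint kinases Mec1 and Rad53 activate Dun1, which acts on the enzyme along several routes. It relieves the repressor Rfx1, also called Crt1, from the promoters of RNR2, RNR3, RNR4, HUG1 and RFX1 itself, and it leads to destruction of Sml1, which binds and inhibits Rnr1, and of Dif1, which carries the small subunit into the nucleus. TFIID and SWI/SNF are known to take part in the derepression of RNR3. The arrays measured RNA and not these protein steps.

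The deleted gene followed the titles. The ANC1 probe set read 8.37, 14.2 and 8.07 intensity units in MMS-treated anc1Δ, 6.87, 15.7 and 8.71 in untreated anc1Δ, 193, 175 and 198 in MMS-treated wildtype and 261, 356 and 237 in untreated wildtype. Actin controls, read as signal at the 3′ end over signal at the 5′ end to judge how intact the RNA was, had higher ratios on all 6 MMS arrays. The ratio was 3.43 to 4.0 in MMS-treated anc1Δ against 1.74 to 1.85 in untreated anc1Δ, and 3.31 to 3.85 in MMS-treated wildtype against 1.47 to 1.68 in untreated wildtype. This ratio moved with every MMS response given here. It was also higher in untreated anc1Δ than in untreated wildtype, with no overlap. Its part in the MMS responses and in the strain comparisons was not tested.

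A gene was called changed when limma gave an adjusted p under 0.05, corrected over 9275 probe sets, and a fold of at least 1.5. With 3 arrays against 3, an exact two-sided permutation test of a single value cannot go below p = 0.1, which every pair of groups with no overlap reaches. All values are the authors' intensities as given on each array, and all changes are differences of log2 intensity, given ± SE. SD is used for levels.

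Under MMS 7 of the 9 genes were called changed in each strain. For 8 of 9 the response was more negative in anc1Δ than in wildtype, and this difference was called for 6. The all-gene median of the difference was also below 0, at -0.08. In anc1Δ, MMS raised 5 of the 9 genes (RFX1, RNR2, RNR3, DUN1 and RNR4) and lowered 2 (SML1 and DIF1). Among all genes 16% were called higher and 15.7% lower in that comparison. In wildtype, MMS raised 6 (the same 5 and HUG1) and lowered DIF1, against 27.7% of all genes called higher and 20.8% lower. The median log2 change of the 9 genes was 0.63 in anc1Δ and 1.45 in wildtype, beside all-gene medians of -0.01 in anc1Δ and 0.08 in wildtype. The groups compared did not overlap for 8 of 9 genes in each strain, as was common on these arrays, since 70.7% of all genes did not overlap in anc1Δ and 74.6% in wildtype.

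**Figure D1:**
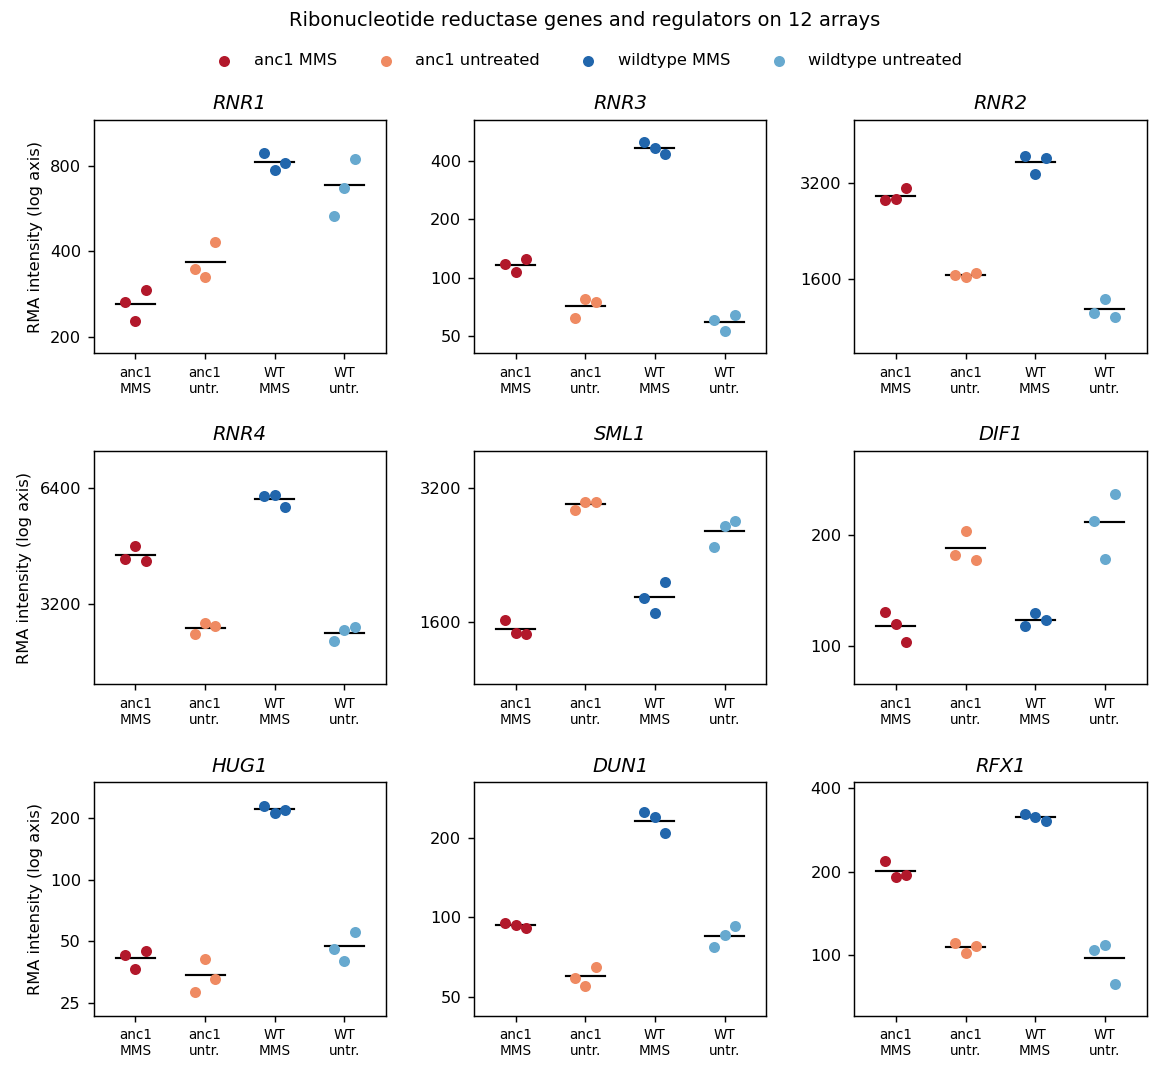
Intensity of the 9 genes on each of the 12 arrays, 1 panel per gene, on a logarithmic axis in RMA intensity units that differs between panels, with points for arrays and a line for the group mean (n = 3). WT is wildtype and untr. is untreated. The 3 MMS-treated wildtype arrays lie above all 9 others for RNR2, RNR3, RNR4, HUG1, DUN1 and RFX1, whereas the RNR1 panel separates the strains.

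RNR3 had the largest wildtype response of the 9 genes. Its intensity was 118, 107 and 125 in MMS-treated anc1Δ and 62.2, 77.6 and 74.7 in untreated anc1Δ. It was 497, 465 and 434 in MMS-treated wildtype and 60.5, 53.1 and 64.2 in untreated wildtype. The treated and untreated arrays did not overlap in either strain, and all 3 treated anc1Δ arrays lay below all 3 treated wildtype arrays. MMS-treated anc1Δ was 1.64-fold higher (95% confidence interval 1.38 to 1.94) than untreated anc1Δ (adjusted p = 0.000172). MMS-treated wildtype was 7.87-fold higher (95% confidence interval 6.65 to 9.31) than untreated wildtype (adjusted p = 2.42e-10), a response that ranked 25 from the top of 5656 genes, against rank 689 in anc1Δ. The untreated strains overlapped, with a log2 difference of 0.27 ± 0.13 for anc1Δ minus wildtype (95% confidence interval -0.03 to 0.56, adjusted p = 0.13).

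RNR1 was called in both strain comparisons and in neither MMS response. Its intensity was 265, 228 and 293 in MMS-treated anc1Δ and 346, 326 and 431 in untreated anc1Δ, with no overlap. It was 891, 773 and 816 in MMS-treated wildtype and 532, 668 and 849 in untreated wildtype, where the untreated arrays spread widely and overlapped the treated ones. Every anc1Δ array lay below every wildtype array. The log2 change with MMS was -0.49 ± 0.16 in anc1Δ (adjusted p = 0.0237), short of the fold limit, and 0.30 ± 0.16 in wildtype (95% confidence interval -0.05 to 0.65, adjusted p = 0.118).

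Both small subunit genes rose with MMS in both strains. RNR2, whose product carries the iron and radical cofactor, read 2828, 2862 and 3083 in MMS-treated anc1Δ and 1645, 1633 and 1671 in untreated anc1Δ. It read 3881, 3433 and 3839 in MMS-treated wildtype and 1257, 1388 and 1219.9 in untreated wildtype. RNR2 thus stood lower in anc1Δ than in wildtype on all treated arrays and higher in anc1Δ on all untreated arrays. The MMS response was 1.77-fold higher (95% confidence interval 1.55 to 2.02) in anc1Δ (adjusted p = 5.79e-06) and 2.89-fold higher (95% confidence interval 2.53 to 3.29) in wildtype (adjusted p = 8.36e-09).

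RNR4, whose product helps Rnr2 fold and receive its cofactor, read 4179, 4514 and 4144 in MMS-treated anc1Δ and 2661, 2842 and 2792 in untreated anc1Δ. It read 6105, 6161 and 5733 in MMS-treated wildtype and 2557, 2727 and 2772 in untreated wildtype. Treated arrays lay above untreated ones in each strain, and the untreated strains overlapped. The response was 1.55-fold higher (95% confidence interval 1.37 to 1.75) in anc1Δ (adjusted p = 3.22e-05) and 2.23-fold higher (95% confidence interval 1.98 to 2.52) in wildtype (adjusted p = 5.06e-08). The anc1Δ call sat close to the fold limit and was lost under a local pooled error (LPE) test. That test takes the difference of group medians, here 0.58 on the log2 scale. It fell short of the fold limit, while the LPE adjusted p was 5.45e-07.

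The 3 inhibitor genes did not move together. HUG1, whose small product binds the Rnr2 subunit, read 42.6, 36.6 and 44.9 in MMS-treated anc1Δ and 28.1, 41.1 and 32.8 in untreated anc1Δ. It read 231, 212 and 220.3 in MMS-treated wildtype and 45.9, 40.2 and 55.6 in untreated wildtype. The treated wildtype arrays stood clear of all 9 others, while the anc1Δ groups overlapped. The log2 change in anc1Δ was 0.30 ± 0.15 (95% confidence interval -0.02 to 0.62, adjusted p = 0.115), whereas MMS-treated wildtype was 4.72-fold higher (95% confidence interval 3.78 to 5.88) than untreated wildtype (adjusted p = 3.07e-08). The HUG1 means of the other 3 groups lay between percentiles 26.6 and 33.2 of all probe sets in intensity.

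SML1, the neighbour of HUG1 on chromosome XIII, fell with MMS in anc1Δ. It read 1616, 1507 and 1499 in MMS-treated anc1Δ and 2863, 2987 and 2979 in untreated anc1Δ. It read 1809.9, 1669.9 and 1968 in MMS-treated wildtype and 2353, 2629 and 2695 in untreated wildtype. No treated array reached an untreated array of its strain. MMS-treated anc1Δ was 1.91-fold lower (95% confidence interval 1.67 to 2.19) than untreated anc1Δ (adjusted p = 2.69e-06). In wildtype the log2 change of -0.50 ± 0.09 (adjusted p = 0.000324) fell short of the fold limit, though centring each array on its median brought it to -0.61 and a call.

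DIF1 fell with MMS in both strains. It read 123, 115 and 103 in MMS-treated anc1Δ and 177, 205 and 171 in untreated anc1Δ. It read 114, 123 and 118 in MMS-treated wildtype and 218, 172 and 258 in untreated wildtype. The MMS-treated level was 1.62-fold lower (95% confidence interval 1.32 to 1.98) in anc1Δ (adjusted p = 0.000865) and 1.81-fold lower (95% confidence interval 1.47 to 2.21) in wildtype (adjusted p = 9.65e-05). Both strain comparisons of DIF1 overlapped, and the interval of the strain difference under MMS ran from -0.35 to 0.24 on the log2 scale.

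The kinase and repressor genes were both induced. DUN1 read 95.7, 93.8 and 91.5 in MMS-treated anc1Δ and 58.9, 55.0 and 65.0 in untreated anc1Δ. It read 251, 241 and 209 in MMS-treated wildtype and 77.0, 86.1 and 93.0 in untreated wildtype. The MMS-treated anc1Δ mean, 93.7 ± 2.08 (SD, n = 3), was thus near the untreated wildtype mean of 85.4 ± 7.99 (SD, n = 3). The MMS response was 1.57-fold higher (95% confidence interval 1.35 to 1.84) in anc1Δ (adjusted p = 0.00017) and 2.74-fold higher (95% confidence interval 2.35 to 3.20) in wildtype (adjusted p = 5.74e-08).

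RFX1, which represses its own gene, had the largest rise of the 9 genes in anc1Δ. It read 219, 191 and 194 in MMS-treated anc1Δ and 110.1, 101 and 107 in untreated anc1Δ. It read 323, 315 and 304 in MMS-treated wildtype and 104, 109 and 78.3 in untreated wildtype. The untreated strains overlapped, and the treated anc1Δ arrays lay between the untreated and the treated wildtype arrays. The MMS response was 1.89-fold higher (95% confidence interval 1.58 to 2.26) in anc1Δ (adjusted p = 3.03e-05) and 3.27-fold higher (95% confidence interval 2.74 to 3.90) in wildtype (adjusted p = 4.44e-08).

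**Figure D2:**
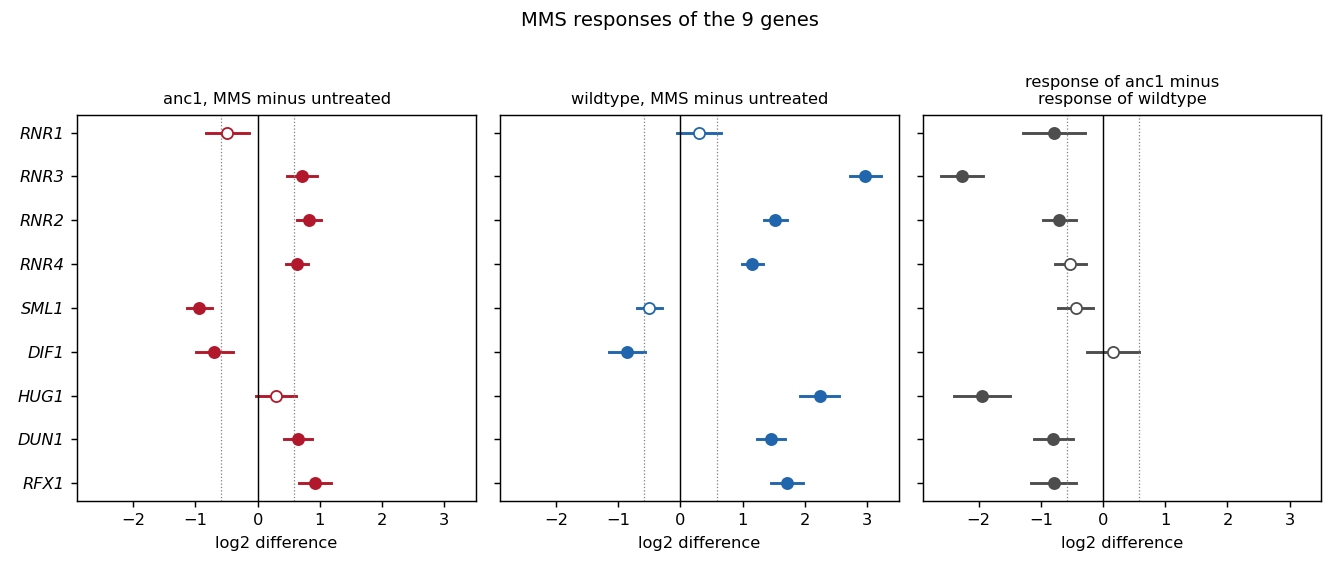
Log2 difference of each of the 9 genes with its 95% confidence interval, for MMS minus untreated in anc1Δ (left), MMS minus untreated in wildtype (middle) and the first minus the second (right), on a common scale. Filled points were called, open points were not, and dotted lines mark a fold of 1.5. RNR3 and HUG1 lie farthest left in the right panel, at -2.27 and -1.94, and DIF1 alone lies right of 0.

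The difference between the 2 MMS responses was tested directly as the strain by treatment term. It was called negative for 6 of 9 genes and positive for none, beside 14.2% of all genes called negative and 9.58% called positive. No member was positive at an unadjusted limma p under 0.05. The median over the 9 genes was -0.78, against -0.08 over all genes. RNR3 had the most negative term, -2.27 ± 0.16 on the log2 scale (adjusted p = 1.47e-06), rank 13 from the bottom of 5656 genes. HUG1 followed with -1.94 ± 0.21 (adjusted p = 4e-05), rank 36 from the bottom. DUN1 at -0.80 ± 0.15 (adjusted p = 0.00171), RFX1 at -0.79 ± 0.17 (adjusted p = 0.00412) and RNR2 at -0.70 ± 0.12 (adjusted p = 0.00135) had overlapping intervals.

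RNR1 was the sixth call, at -0.78 ± 0.23 (adjusted p = 0.0218). It was lost when MMS-treated wildtype replicate 1, MMS-treated anc1Δ replicate 2 or untreated anc1Δ replicate 3 was left out, with terms of -0.73, -0.69 and -0.66 and adjusted p of 0.0529, 0.0572 and 0.0569 in that order. RNR4 (-0.53 ± 0.11, adjusted p = 0.00479) and SML1 (-0.44 ± 0.13, adjusted p = 0.022) passed the p threshold but not the fold limit. Under quantile normalization RNR4 was called as well, at -0.63 (adjusted p = 0.00195), which made 7 of 9. For DIF1 the term was 0.16 ± 0.19 (95% confidence interval -0.26 to 0.57, adjusted p = 0.558).

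On the log2 scale the anc1Δ response was 13.2% of the wildtype response for HUG1 and 23.9% for RNR3, but 45% for DUN1, 53.8% for RFX1, 53.9% for RNR2 and 54.3% for RNR4. By estimate alone, the places of RNR3 and HUG1 among the rises differed between strains. In anc1Δ the rises were ordered RFX1, RNR2, RNR3, DUN1 and RNR4, all within 0.63 to 0.92. Their intervals overlapped, so the order in anc1Δ is not settled. In wildtype the order was RNR3, HUG1, RFX1, RNR2, DUN1 and RNR4, and the RNR3 interval lay clear of every other. For SML1 the fall in anc1Δ was larger than in wildtype, at 189% of it, and for DIF1 it was 81.4%.

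Set directly against wildtype under MMS, anc1Δ was lower for 5 of 9 genes and higher for none, beside 18.4% of all genes called lower and 10.9% called higher. By limma 0 members were higher at an unadjusted p under 0.05, and the LPE test called 0 higher. The median log2 difference was -0.64, against -0.18 over all genes. The groups did not overlap for 8 of 9 genes, DIF1 being the exception, beside 72% of all genes. HUG1 was 5.35-fold lower (95% confidence interval 4.29 to 6.68, adjusted p = 5.03e-08), RNR3 was 3.99-fold lower (95% confidence interval 3.37 to 4.72, adjusted p = 2.39e-08), RNR1 was 3.17-fold lower (95% confidence interval 2.48 to 4.04, adjusted p = 3.18e-06) and DUN1 was 2.49-fold lower (95% confidence interval 2.13 to 2.91, adjusted p = 4.75e-07). RFX1 was 1.56-fold lower (95% confidence interval 1.31 to 1.87, adjusted p = 0.00049), a call that was lost at a log2 difference of -0.52 under median centring and under quantile normalization. For RNR4 (-0.49 ± 0.08), RNR2 (-0.35 ± 0.09) and SML1 (-0.24 ± 0.09) the difference did not reach the fold limit.

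Untreated anc1Δ was called lower than untreated wildtype for 1 of 9 genes and higher for none, beside 12.4% of all genes called lower and 11.1% called higher, and the median log2 difference was 0.04 against -0.10 over all genes. RNR1 was the gene called, 1.84-fold lower (95% confidence interval 1.37 to 2.47) in anc1Δ (adjusted p = 0.00662). DUN1 had a log2 difference of -0.52 ± 0.12 (adjusted p = 0.0095) and HUG1 of -0.48 ± 0.17 (adjusted p = 0.0562). Either gene crossed the fold limit when 1 array was left out, DUN1 at -0.59 without untreated wildtype replicate 1 and HUG1 at -0.59 without untreated wildtype replicate 2 and -0.62 without untreated anc1Δ replicate 2. RNR2, the 1 member higher at an unadjusted limma p under 0.05, had 0.36 ± 0.10 (adjusted p = 0.0225) and was not called by the LPE test either, and RNR4 had 0.04 ± 0.10 (95% confidence interval -0.18 to 0.27). The difference under MMS minus the difference untreated is the strain by treatment term given above.

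**Figure D3:**
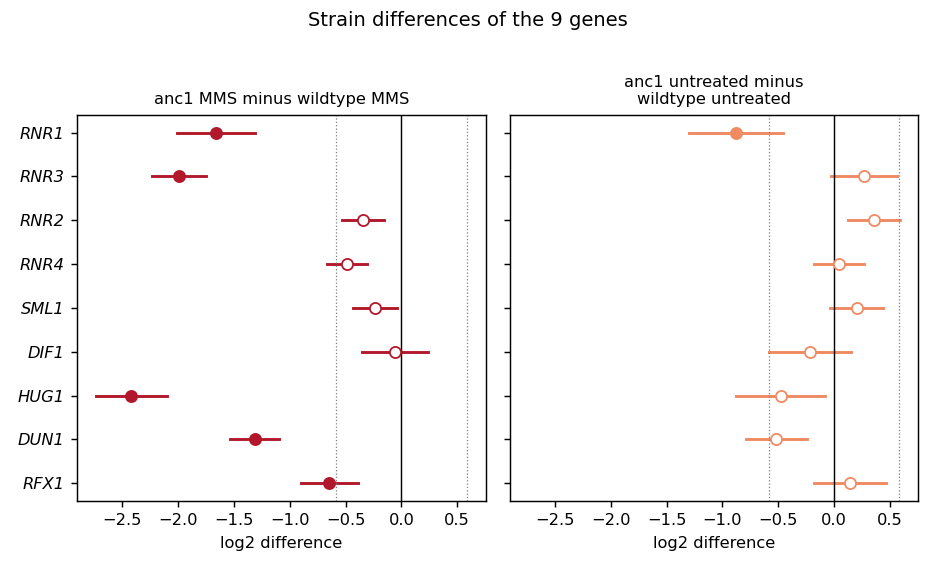
Log2 difference of each of the 9 genes between strains with its 95% confidence interval, for anc1Δ minus wildtype under MMS (left) and untreated (right), on a common scale. Filled points were called, open points were not, and dotted lines mark a fold of 1.5. RNR1 is called in both panels, at -1.66 under MMS and -0.88 untreated, while RNR3, HUG1, DUN1 and RFX1 are called under MMS alone.

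All-gene medians were themselves below 0 in the strain comparisons, and scaling moved them. Centring each array on its median shifted the all-gene median by -0.12 in the wildtype response and by 0.13 in the strain comparison under MMS. The share of calls that were negative was 62.6% as deposited and 46.7% after centring in the strain comparison under MMS, and 59.8% as deposited and 48.5% after centring in the difference between responses. After centring, the 9 genes still had 4 calls lower and none higher under MMS, and 6 negative and none positive in the difference between responses.

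Other genes of the pathway were taken from lists of known function. The list counts stand beside these all-gene shares. In the MMS responses, 16% were called higher and 15.7% lower in anc1Δ, and 27.7% higher and 20.8% lower in wildtype. In the difference 14.2% were called negative and 9.58% positive. For anc1Δ against wildtype, 18.4% were called lower and 10.9% higher under MMS, and 12.4% lower and 11.1% higher untreated. Of 12 checkpoint kinases and sensors, 5 rose in anc1Δ and 6 in wildtype, none fell in either, and none was called in the difference between responses. By limma at an unadjusted p under 0.05 the counts were 0 lower in each strain and 2 negative and 0 positive in the difference. The median log2 change was 0.45 in anc1Δ and 0.55 in wildtype. MRC1, a mediator of the replication checkpoint, rose by 1.38 in anc1Δ and 1.26 in wildtype on the log2 scale, and RAD17, of the checkpoint clamp, by 1.05 in anc1Δ and 1.02 in wildtype. RAD53, the kinase that activates Dun1, rose by 1.01 in anc1Δ and 1.56 in wildtype, and LCD1, the partner of Mec1, by 0.72 in anc1Δ and 1.03 in wildtype. Under MMS, RAD53 was -0.93 and LCD1 -0.60 for anc1Δ minus wildtype on the log2 scale, 2 of the 3 genes of the list called lower there. The LCD1 call was lost under median centring (-0.47), quantile normalization (-0.49) and the LPE test (-0.57), and without MMS-treated anc1Δ replicate 3 (-0.53).

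Of 9 corepressors and other transcription factors of RNR promoters, 1 rose and 1 fell in anc1Δ, and 2 rose and 4 fell in wildtype, with medians of -0.12 in anc1Δ and -0.14 in wildtype. CYC8, a corepressor that Rfx1 recruits, fell by 0.79 in anc1Δ and by 0.78 in wildtype. Its partner TUP1 fell by 1.03 in wildtype and had -0.50 in anc1Δ, not called. TUP1 was already lower in untreated anc1Δ than in untreated wildtype, by -0.70 and called, and differed by -0.18 under MMS, not called. ROX1, a repressor of hypoxic genes, rose by 1.53 in anc1Δ and 1.15 in wildtype. The difference between responses was called for SWI4, a subunit of the SBF factor (-0.79, adjusted p = 0.00856), and for NRM1, a corepressor of the MBF factor (0.79, adjusted p = 0.0131). SWI4 had -0.05 in anc1Δ and 0.74 in wildtype, and NRM1 -0.12 in anc1Δ and -0.91 in wildtype. Both were dim in anc1Δ, so a change there may go unseen. SWI4 averaged 18.4 in MMS-treated and 19.1 in untreated anc1Δ, and NRM1 33.9 in MMS-treated and 36.8 in untreated anc1Δ. For anc1Δ minus wildtype, SWI4 was -1.21 under MMS, called, and -0.41 untreated, not called. NRM1 was -0.21 under MMS, not called, and -0.995 untreated, called. None of the 3 genes for localization of Rnr2 and Rnr4 (WTM1, WTM2 and KAP122) was called in either MMS response by limma or the LPE test, although 2 were lower at an unadjusted limma p under 0.05 in each strain. Between strains, limma called WTM1 lower in anc1Δ under MMS (-0.82, adjusted p = 2.49e-06) and KAP122 lower untreated (-0.60, adjusted p = 0.00765). WTM2 was called in neither strain comparison. The WTM1 difference between responses was -0.57 (limma adjusted p = 0.00236), short of the fold limit.

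Of 10 genes for the supply of electrons and iron to the enzyme, 5 rose and 1 fell in anc1Δ and 8 rose and none fell in wildtype (1 lower at an unadjusted limma p under 0.05), with medians of 0.69 in anc1Δ and 0.91 in wildtype. The thioredoxin gene TRX2 rose by 1.16 in anc1Δ and 1.19 in wildtype, and the glutathione reductase gene GLR1 by 1.43 in anc1Δ and 1.06 in wildtype. DRE2, an iron-sulfur protein, rose by 1.62 in anc1Δ and 1.13 in wildtype. The thioredoxin reductase gene TRR1 was the gene of this list called with a stronger rise in anc1Δ, 1.49 against 0.66 in wildtype (difference 0.83, adjusted p = 0.000557). The wildtype call of TRR1 was lost under median centring (0.54) and without untreated wildtype replicate 1 (0.58), and the anc1Δ call of GRX4 given next without MMS-treated anc1Δ replicate 2 (-0.54). The glutaredoxin gene GRX1 had 0.04 in anc1Δ against 0.99 in wildtype (difference -0.94, adjusted p = 0.000838). It was already higher in untreated anc1Δ than in untreated wildtype, by 0.75 and called, and differed by -0.19 under MMS, not called. GRX4, which acts in iron sensing, was called in opposite directions, -0.61 in anc1Δ against 0.84 in wildtype (difference -1.45, adjusted p = 3.65e-05). For anc1Δ minus wildtype, GRX4 was -1.98 under MMS, called, and -0.53 untreated, not called. TRR1 was 0.54 under MMS and -0.29 untreated, neither called.

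Of 9 genes for other steps of deoxynucleotide synthesis, 4 fell and none rose in each strain (1 higher in each at an unadjusted limma p under 0.05, 0 by the LPE test), with medians of -0.57 in anc1Δ and -0.26 in wildtype. The dUTPase gene DUT1 changed by -1.32 in anc1Δ and -1.56 in wildtype, the dCMP deaminase gene DCD1 by -0.79 in anc1Δ and -1.19 in wildtype, the guanylate kinase gene GUK1 by -0.76 in anc1Δ and -1.10 in wildtype, and the adenylate kinase gene ADK1 by -1.05 in anc1Δ and -1.39 in wildtype. The thymidylate synthase gene CDC21 was called in the difference between responses (-0.59, adjusted p = 0.0164), with -0.57 in anc1Δ and 0.01 in wildtype, neither called. That call rested on the fold limit and was lost under median centring (-0.51), quantile normalization (-0.52) and averaging of probe sets (-0.54), and when any 1 of 6 arrays was left out (-0.58 to -0.49).

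**Figure D4:**
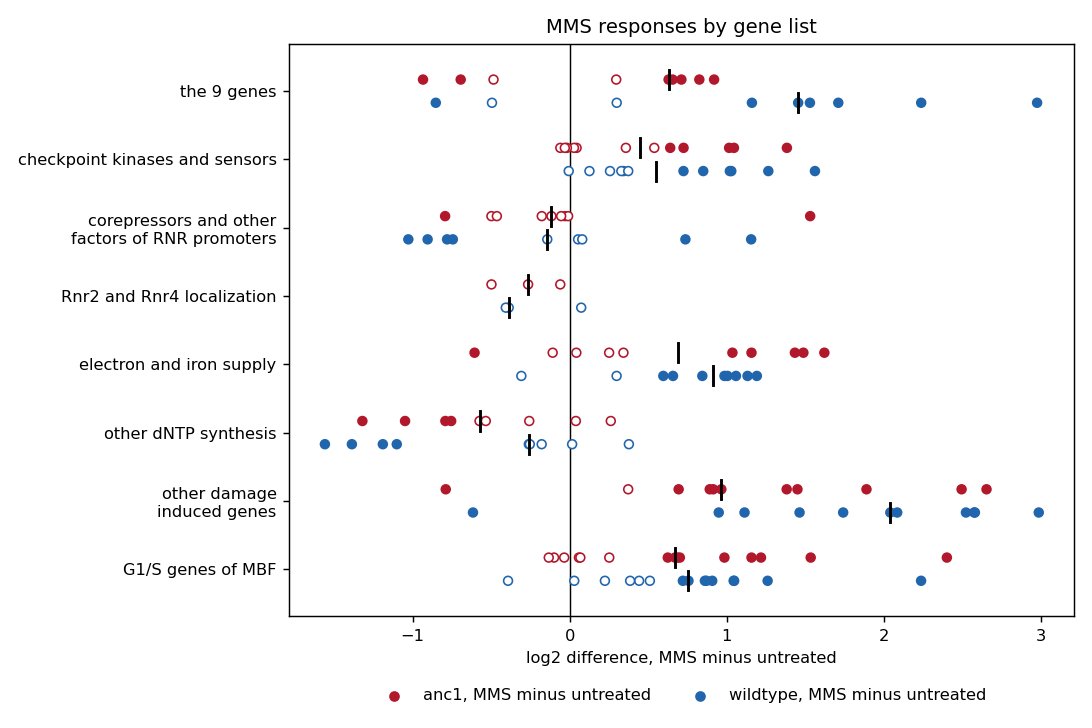
Log2 difference of MMS minus untreated for the 9 genes and the genes of 7 pathway lists, in anc1Δ (upper row of each pair) and wildtype (lower row), with a point per gene and a black bar at the median. Filled points were called and open points were not. The medians of the 9 genes are 0.63 in anc1Δ and 1.45 in wildtype, and those of the other damage induced genes 0.97 in anc1Δ and 2.04 in wildtype, whereas the G1/S genes have 0.67 and 0.76.

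Of 11 measured genes on a list of other genes induced by DNA damage, 9 rose and 1 fell in anc1Δ and 10 rose and 1 fell in wildtype. The median log2 change was 0.97 in anc1Δ and 2.04 in wildtype, and the difference between responses was called negative for 6 of 11 genes and positive for none (0 at an unadjusted limma p under 0.05). DDI1 rose by 2.65 in anc1Δ and 2.99 in wildtype, and MAG1, a glycosylase that removes alkylated bases, by 2.50 in anc1Δ and 2.58 in wildtype, with no call in the difference. The recombination gene RAD54 (1.89 in anc1Δ, 2.52 in wildtype), the excision repair genes RAD2 (1.45 in anc1Δ, 2.09 in wildtype) and RAD16 (0.97 in anc1Δ, 2.04 in wildtype) and the polyubiquitin gene UBI4 (1.38 in anc1Δ, 2.58 in wildtype) rose less in anc1Δ. So did DIN7, a mitochondrial nuclease gene (0.69 in anc1Δ, 1.74 in wildtype), while PLM2 had 0.37 in anc1Δ, not called, and 1.46 in wildtype. PLM2 was dim, with mean intensities of 11.0 in MMS-treated anc1Δ, 8.53 in untreated anc1Δ, 34.3 in MMS-treated wildtype and 12.4 in untreated wildtype. The probe set of the deleted ANC1 gene averaged 10.2 in MMS-treated and 10.4 in untreated anc1Δ, so a change of PLM2 in anc1Δ may go unseen. UBI4 and RAD2 were higher in untreated anc1Δ than in untreated wildtype, by 1.13 and 0.68 on the log2 scale, and differed by -0.07 and 0.05 under MMS, neither called. Over the list, anc1Δ was called lower for 2 of 11 genes and higher for none under MMS, beside 18.4% of all genes lower and 10.9% higher. Untreated, it was called higher for 2 and lower for none, beside 11.1% of all genes higher and 12.4% lower. In the untreated comparison RAD2 lost its call without untreated anc1Δ replicate 3 (0.57). The calls of RAD54 and RAD2 in the difference were lost under median centring (-0.55 for each), that of RAD54 also under quantile normalization (-0.46) and without untreated wildtype replicate 1 (-0.52), and that of RAD2 without untreated anc1Δ replicate 3 (-0.52).

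RNR1 is known to belong to the G1/S genes driven by the MBF factor. Of 15 others on a list of such genes, 9 rose and none fell in each strain, with medians of 0.67 in anc1Δ and 0.76 in wildtype. None of the 15 was called in the difference between responses (2 positive and 2 negative at an unadjusted limma p under 0.05). Genes placed on other lists were not counted here. They include CDC21 (-0.59), PLM2 (-1.09) and NRM1 (0.79), each called in the difference. RFA1 rose by 2.40 in anc1Δ and 2.24 in wildtype and RFA2 by 1.53 in anc1Δ and 1.04 in wildtype, both for subunits of the single-stranded DNA binding complex. RAD27, a flap nuclease, rose by 1.22 in anc1Δ and 0.87 in wildtype, ASF1, a histone chaperone, by 0.98 in anc1Δ and 0.91 in wildtype, and the primase gene PRI2 by 0.70 in anc1Δ and 1.26 in wildtype. Between strains anc1Δ was lower for 9 of the 15 under MMS (median -0.69) and for 7 untreated (median -0.55), and higher for none by limma or the LPE test. Under median centring the untreated count was 4.

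Across the 12 arrays, the genes outside the 9 whose log2 values correlated most with RNR3 were YIL108W (Pearson r = 0.992), RIB5 (0.990) and ATG19 (0.989). For RNR1 they were YPL077C (0.971), YOR111W (0.969) and SFP1 (0.967). For RNR2 they were UBP2 (0.994), CUE5 (0.994) and NTH2 (0.990), and for RNR4 YLR046C (0.991), KEL2 (0.990) and PKH1 (0.990). The 12 points share 4 groups, so these values describe likeness of group levels.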

How the data were processed

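RNA of 12 cultures was measured on Affymetrix YG-S98 arrays. The deposited values are intensity per probe set on a linear scale, which the authors computed with RMA; its software version is, in the sources used here, not given. Log2 was taken and no further normalization applied. RMA values have no read depth, so the number of arrays limits the precision. Of 9335 probe sets, 60 were controls and 9275 were tested. Genes came from the platform annotation: 6504 probe sets had 1 symbol, 328 several and 2443 none, and all 6504 were matched to current symbols. The brightest probe set stood for each of 5656 genes.

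Groups were compared with limma 3.58.1 in R 4.3.3 (lmFit, eBayes, Benjamini-Hochberg adjustment), over 12 arrays for the MMS responses, their difference and the comparison under MMS, and over 6 arrays for the untreated strains. The script was tested on simulated data. Replicate arrays correlated at 0.988 to 0.997. Deviations of same-numbered treated and untreated arrays correlated at 0.17 to 0.37 in anc1Δ and at -0.13 to 0.25 in wildtype. Each anc1Δ array correlated more with its own number than with another, though by little for replicate 3 (0.17 against 0.14). In wildtype this held for replicate 3 (0.25 against -0.14) and not for replicates 1 and 2. The numbers were taken as possible pairs in anc1Δ only, on these correlations alone, and the pairing is not settled in either strain. Between strains, deviations of same-numbered arrays correlated at -0.46 to 0.14. The main fits had 1 mean per group and no block, so they used no pairing.

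The members and gene lists were chosen with earlier results of these data known. Genes named besides the 9 were ANC1, in each list up to 4 called in an MMS response with the smallest adjusted p and all called in the difference, and the 3 most correlated with each RNR gene. Alternatives were a replicate block, other scalings, an LPE test, other fold limits, a filter on dim probe sets, other fits of the spread, averaging the probe sets of a gene and leaving out each array. No sequence was used here.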

Additional observations from a re-analysis of the deposited data

Results flagged for a closer look

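The strain by MMS term was called, as a test of the difference between the MMS responses of anc1Δ and wildtype, for 18 of the genes described. Calls of this term were common on these arrays, with 14.2% of all genes called negative and 9.58% called positive. Among the 9 it was -2.27 for RNR3, -1.94 for HUG1, -0.80 for DUN1, -0.79 for RFX1, -0.78 for RNR1 and -0.70 for RNR2, as log2 response of anc1Δ minus that of wildtype. Among other damage induced genes it was -1.20 for UBI4, -1.09 for PLM2, -1.08 for RAD16, -1.05 for DIN7, -0.64 for RAD2 and -0.63 for RAD54. In the remaining lists it was -1.45 for GRX4, -0.94 for GRX1, -0.79 for SWI4 and -0.59 for CDC21, and positive for TRR1 (0.83) and NRM1 (0.79). The actin 3′ to 5′ ratio rose with MMS in both strains, and its part in these terms was not tested.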

How the results depend on the processing

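The count of the 9 genes called moved by over 1.5 times with the fold limit and with single arrays. With a fold of at least 2, calls numbered 0 in the anc1Δ response, 2 in the difference between responses (RNR3 and HUG1) and 0 between the untreated strains. With no fold limit they numbered 8 between the strains under MMS and 3 untreated. Leaving out each array in turn gave 1 to 2 calls between the untreated strains, 5 to 6 in the difference between responses, 7 in each MMS response and 5 between the strains under MMS. DIF1 between the strains under MMS, never called, changed sign to 0.070 under median centring and 0.072 under quantile normalization, and ranged from -0.12 to 0.015 with single arrays left out. RFX1 between the untreated strains ranged from -0.00081 to 0.24. Over all genes, calls with no fold limit, as used and at a fold of at least 2 numbered 3332, 1793 and 661 in the anc1Δ response, 4151, 2744 and 1487 in wildtype, 2010, 1347 and 440 in the difference, 3383, 1657 and 566 between strains under MMS and 2533, 1328 and 475 untreated. The replicate block, which used the replicate numbers across both strains, changed no call of the 9 genes. It left 7 calls in each MMS response, 6 in the difference, 5 between strains under MMS and 1 untreated. A replicate block within the 6 anc1Δ arrays, added after seeing the data, gave 7 calls in the anc1Δ response. The LPE test could not be fitted to the difference. Causes were not tested. HUG1 was dim in the 3 groups other than treated wildtype, and PLM2 in all 4 groups, so small changes there may go unseen. The same limit holds for other named genes that were as dim as HUG1 in some groups. Among them were SWI4 and NRM1 in anc1Δ and RAD17 and RAD53 in the untreated groups.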
